A study of Rattus norvegicus with 8 samples.

Results

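Bipolar cell genes were followed in rat retinas after optic nerve crush: Grm6, Nyx, Trpm1, Gng13, Pcp2, Prkca, Cabp5, Vsx1 and Otx2. Each was taken by its gene name in the array files, with all its probes and all 8 channels. The 9 genes had 12 probes and 21 spots, among 26334 gene names and 42877 spots that were not controls, and each of the 9 passed the spot filter that left 16307 genes. The retinas came from 8-week-old female Lister Hooded rats, whose right optic nerve was either crushed in the orbit (ONC, 4 retinas; the forceps closed for 10 s, 3 mm behind the disc) or exposed but not crushed (CTR, sham, 4 retinas). They were taken 2 weeks after surgery and profiled one by one on 4 Agilent arrays with 2 dyes. By the labels, array n carried CTRn in Cy5 (red) and ONCn in Cy3 (green), so that the condition and the dye of a retina cannot be told apart. In the methods, by contrast, an array holds 2 retinas of a single group, 1 in each dye. Markers of retinal ganglion cells, the neurons whose axons are crushed, were high in CTR2, ONC1, ONC2 and ONC3 and low in the 4 other channels, which goes against the labels in both groups. Every direction given for ONC against CTR is therefore one between labels.

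Bipolar cells carry the signal of rods and cones to the inner retina. In darkness photoreceptors release glutamate, and ON bipolar cells sense it through the metabotropic receptor mGluR6, whose G protein Go closes the cation channel TRPM1, so that light, by stopping the release, opens the channel. Rod bipolar cells are ON cells that serve dim light, whereas cone bipolar cells are either ON or OFF, and their axons end in the layer where ganglion and amacrine cells receive them.

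The arrays read each gene through probes of 60 bases, placed by the files on the rat build rn4. Sequences of 4 probes are shown because the genes they read differ in how far the result rests on 1 probe. The Prkca probe A_43_P19450 (chr10:97368739-97368798, minus strand) was printed in 10 spots, which gives a technical spread. The Trpm1 probe A_44_P102746 (chr1:118700409-118700468, plus strand) was the single probe of its gene. The Vsx1 probe A_64_P122795 (chr3:141324414-141324473, minus strand) parted from the other Vsx1 probe in 1 channel. The Gng13 probe A_64_P062663 (chr10:14988089-14988148, plus strand) ends on TGA, printed in capitals, and the frame that closes there held no stop in its 19 earlier codons. Of 3 reading frames, 1 was free of stops in the Prkca and Trpm1 probes and 2 in the Vsx1 probe, where no letters are marked.
Prkca A_43_P19450: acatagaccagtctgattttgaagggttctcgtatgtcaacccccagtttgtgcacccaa
Trpm1 A_44_P102746: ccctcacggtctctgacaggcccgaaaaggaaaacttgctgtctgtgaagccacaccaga
Vsx1 A_64_P122795: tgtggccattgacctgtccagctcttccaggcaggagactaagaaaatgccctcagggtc
Gng13 A_64_P062663: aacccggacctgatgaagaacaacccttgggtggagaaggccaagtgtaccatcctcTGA

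Levels are log2 signals after background subtraction, loess normalization within each array and centering of each channel on its median, so 0 is the median spot of a channel and a level compares channels, never different genes. Values of 4 channels are given in the order of replicates 1 to 4. Background-subtracted signal was well above background for all 21 spots in all 8 channels. The margin differed between probes. The Vsx1 probe A_64_P122795 had a foreground of 2.39 times its local background in CTR1 and the Cabp5 probe 3.32 times in CTR4, their lowest channels, while the Pcp2 probe stood at 949 times or more and the Otx2 probe at 1020 times or more. The ONC4 channel was the dimmest, with a median foreground of 218.1 over a background of 26 and 66.8% of all spots well above background, against 79.4% in CTR1. With 4 arrays, their number limits the precision of every value.

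In the comparison of ONC with CTR channels, limma called 0 of the 9 bipolar cell genes at an adjusted p under 0.05, beside 81 of 16307 genes (0.497%). Of the 81, 38 (0.233%) were higher and 43 (0.264%) lower in ONC. With the array as a block, limma called 1254 genes (7.69%) and again 0 of the 9. At an unadjusted p under 0.05, 3 of the 9 passed (Grm6, Trpm1 and Prkca), beside 3025 of all genes (18.6%), and the 3 were higher in ONC, where 1418 genes (8.7%) passed in that direction. The methods' t-test after Benjamini-Hochberg called 0 genes and 0 of the 9. With any of the CTR channels or any of ONC1, ONC3 and ONC4 left out, limma called 0 genes in all, with 2085 to 3252 at an unadjusted p under 0.05, and without ONC2 it called 38, while the count among the 9 was 0 in each of the 8 cases. At an unadjusted p under 0.05, limma passed 1 of the 9 without CTR3, CTR4, ONC1 or ONC3. It passed 2 without CTR1, CTR2, ONC2 or ONC4, and 1 with the scanner software's processed signals. The log2 fold change was above 0 in 8 of the 9, Nyx being the exception, beside 47.4% of all genes, and the median was 0.18 against -0.01 over all genes. Median scaling of the channels in place of loess left 5 of the 9 above 0, since Pcp2, Otx2 and Gng13 changed sign, beside 59.4% of all genes. That scaling called 3194 genes (19.6%), 71% of them higher in ONC against 46.9% of the calls with loess, and it called 2 of the 9, Prkca and Cabp5, both higher (13.9% of all genes).

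**Figure D1:**
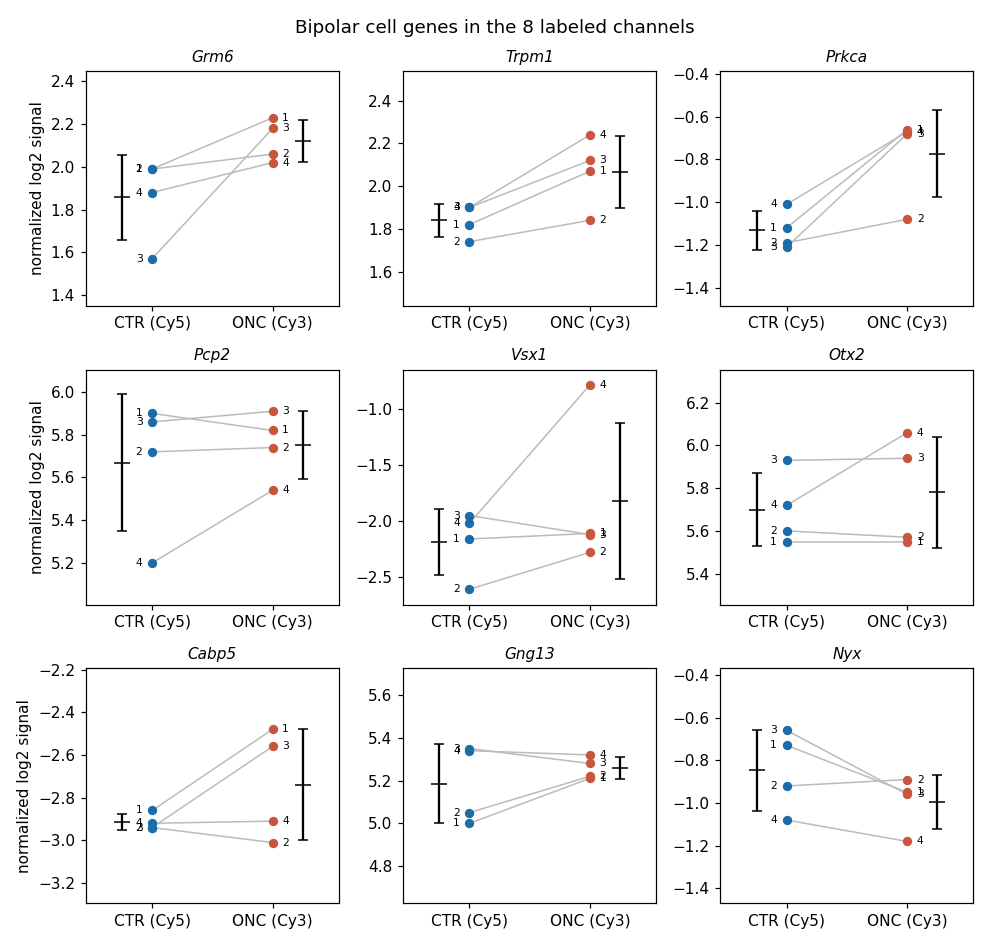
Normalized log2 signal of each bipolar cell gene in the 4 CTR and 4 ONC channels; gray lines join the channels of an array, whose number stands beside each point, and bars give the mean and SD (n = 4). The ONC points lie above all CTR points for Grm6 alone, and ONC4 stands far above the other channels for Vsx1.

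Grm6 encodes mGluR6, the glutamate receptor on the dendrites of ON bipolar cells. Its level was 1.99, 1.99, 1.57 and 1.88 in CTR and 2.23, 2.06, 2.18 and 2.02 in ONC. The lowest ONC channel lay just above the highest CTR channel, so the groups did not overlap, and CTR3 was the low end of the sham channels. Of the 9 genes, 1 had ONC channels wholly above CTR channels, beside 940 of all genes (5.76%). The means were 1.86 ± 0.20 (SD, n = 4) in CTR and 2.13 ± 0.10 (SD, n = 4) in ONC. The log2 fold change was 0.27 with a 95% interval from 0.01 to 0.52, a 1.20-fold difference with a limma adjusted p of 0.25, and it was 0.17 without CTR3. The exact two-sided permutation test gave p = 0.0286, the smallest that 70 assignments without regard to the arrays allow, while an exact permutation by 16 swaps within arrays gave p = 0.125, again the smallest possible. ONC exceeded CTR on 4 of 4 arrays, a pattern shown by 18.2% of all genes, with differences of 0.24, 0.07, 0.62 and 0.14. In whole retina, fewer cells of a type and less RNA in each cell cannot be told apart, and the same holds for more.

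Nyx encodes nyctalopin, the leucine-rich repeat protein that holds TRPM1 at the dendritic tips. Its level was -0.73, -0.92, -0.66 and -1.08 in CTR and -0.95, -0.89, -0.96 and -1.18 in ONC. The groups overlapped, with CTR2 and CTR4 among the ONC values and ONC4 the lowest channel. Its log2 fold change of -0.15 (95% interval -0.41 to 0.11, limma adjusted p = 0.544) was the single value below 0 among the 9, and it ranged from -0.22 to -0.08 over 16 other settings. The ONC channel was higher on 1 of 4 arrays.

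Trpm1 encodes the cation channel at the end of the mGluR6 cascade, and its probe is the second sequence printed. It was at 1.82, 1.74, 1.90 and 1.90 in CTR and at 2.07, 1.84, 2.12 and 2.24 in ONC. ONC1, ONC3 and ONC4 exceeded every CTR channel, and ONC2 lay within the CTR range. The means were 1.84 ± 0.08 (SD, n = 4) and 2.07 ± 0.17 (SD, n = 4), and the ONC channel was higher on 4 of 4 arrays, by 0.25, 0.10, 0.22 and 0.34. A log2 fold change of 0.23 (standard error 0.10) had a limma adjusted p of 0.268, and of 0.0861 with the array as a block. An exact permutation test gave p = 0.0857, or 0.125 with swaps within arrays.

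Gng13 encodes the gamma subunit of the Go protein in ON bipolar cells, and Pcp2 a GoLoco protein that binds the alpha subunit of Go and modulates it. Gng13 was at 5.0, 5.05, 5.35 and 5.34 in CTR and at 5.21, 5.22, 5.28 and 5.32 in ONC. All 4 ONC channels fell inside the CTR range, where CTR1 and CTR2 were low and CTR3 and CTR4 high. Its SD was 0.19 in CTR and 0.05 in ONC (n = 4 each), and the log2 fold change of 0.07 had a 95% interval from -0.16 to 0.31 and went from 0.01 without CTR1 to 0.13 without CTR3. The probe that ends on TGA gave 0.11 and the other Gng13 probe, which starts 73 bases further along the plus strand, 0.03. Pcp2 was at 5.90, 5.72, 5.86 and 5.20 in CTR and at 5.82, 5.74, 5.91 and 5.54 in ONC. Array 4 held the lowest channel of either group, and the groups overlapped. For Pcp2 the log2 fold change was 0.08 (95% interval -0.28 to 0.44), and it became -0.08 without CTR4. Limma adjusted p was 0.772 for Gng13 and 0.843 for Pcp2.

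Prkca encodes protein kinase C alpha, in wide use as the marker of rod bipolar cells. Its level was -1.12, -1.19, -1.21 and -1.01 in CTR and -0.66, -1.08, -0.68 and -0.67 in ONC. ONC1, ONC3 and ONC4 lay close together above every CTR channel, whereas ONC2 fell within the CTR range. The means were -1.13 ± 0.09 (SD, n = 4) in CTR and -0.77 ± 0.21 (SD, n = 4) in ONC. The log2 fold change of 0.36 (standard error 0.11, 95% interval 0.10 to 0.62) was a 1.29-fold difference with the lowest limma adjusted p of the 9 genes, 0.146, and 0.0579 with the array as a block. Without loess it was 0.42 with a limma adjusted p of 0.036, and over 16 other settings the adjusted p ranged from 0.036 to 0.364. The exact permutation test gave p = 0.0571, or 0.125 with swaps within arrays, and the ONC channel was higher on 4 of 4 arrays, by 0.47, 0.11, 0.53 and 0.35.

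Both Prkca probes had their difference in the same direction. The probe printed in 10 spots, 8 of which passed the filter, read -0.83, -0.79, -0.71 and -0.66 in CTR and -0.38, -0.84, -0.33 and -0.27 in ONC. ONC2 was the lowest of its 8 channels, and the other ONC channels exceeded all CTR channels. The SD over its 8 spots within a channel lay between 0.13 in ONC4 and 0.38 in CTR3. That SD is the spread of single spots, while the log2 fold change of this probe, 0.29, compares averages over spots and channels. The second probe, A_64_P019608, which starts 1497 bases lower on the same chromosome, read -1.41, -1.59, -1.70 and -1.37 in CTR and -0.93, -1.33, -1.03 and -1.07 in ONC. Its groups did not overlap, ONC2 being again the lowest ONC channel, and with the Grm6 probe it made 2 of 12 probes with ONC wholly above CTR, beside 6.22% of all probes. Its log2 fold change was 0.43 with a limma adjusted p of 0.0989 over 18599 probes, where 113 (0.608%) were called, and of 0.0441 with the array as a block, where 1522 (8.18%) were called. It was the single called probe of the 12, and with the array as a block only.

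**Figure D2:**
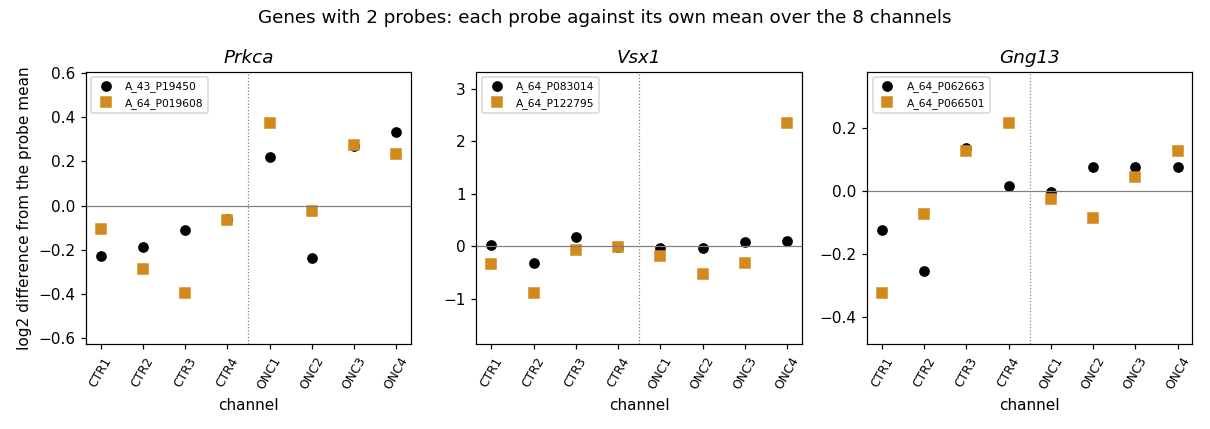
Log2 signal of each probe of Prkca, Vsx1 and Gng13 in every channel, as the difference from that probe's own mean over the 8 channels. Both Prkca probes sit higher in ONC1, ONC3 and ONC4, and 1 of the 2 Vsx1 probes is high in ONC4 where the other is not.

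Cabp5 encodes calcium-binding protein 5, found in rod bipolar cells and in some cone bipolar types. It was at -2.86, -2.94, -2.94 and -2.92 in CTR and at -2.48, -3.01, -2.56 and -2.91 in ONC. The CTR channels were close together, with an SD of 0.04 (n = 4). ONC1 and ONC3 were above them, ONC4 among them and ONC2 below all. This gave a log2 fold change of 0.18 (95% interval -0.11 to 0.46, limma adjusted p = 0.509), which was 0.09 without ONC1, 0.11 without ONC3 and 0.27 without ONC2. Without loess it was 0.57 with a limma adjusted p of 0.0197, the lowest of its 16 other settings, which reached up to 1. Its probe was among the dimmest here, at no more than 8.13 times its background in any channel.

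Vsx1 encodes a homeobox transcription factor of certain cone bipolar cells. Its level was -2.16, -2.61, -1.95 and -2.02 in CTR and -2.11, -2.28, -2.12 and -0.78 in ONC. ONC4 stood alone above all other channels, and the remaining ONC channels lay within the CTR range. The log2 fold change of 0.36 (standard error 0.32, limma adjusted p = 0.594) was 0.01 without ONC4. The ONC4 value came from 1 probe, the Vsx1 sequence printed above, which read -3.62, -4.18, -3.36 and -3.29 in CTR and -3.47, -3.81, -3.60 and -0.93 in ONC. Its uncorrected foreground was 326.8 in ONC4, over a background of 23.0, against 127.2, 148.9 and 112.8 in ONC1, ONC2 and ONC3. In ONC4, the dimmest channel as a whole, this spot was thus brighter than in any other Cy3 channel. The second Vsx1 probe, which starts 1575 bases lower on the chromosome, was at -0.62 in ONC4 and between -0.76 and -0.64 in the other ONC channels. It gave a log2 fold change of 0.06, and it did not stand apart in ONC4.

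Otx2 encodes the homeobox factor that photoreceptors, bipolar cells and the pigment epithelium share, so its level in whole retina is not one of bipolar cells alone. It was at 5.55, 5.60, 5.93 and 5.72 in CTR and at 5.55, 5.57, 5.94 and 6.06 in ONC. The channels of arrays 1, 2 and 3 went together, with differences of 0.00, -0.03 and 0.00 against 0.35 on array 4, and the groups overlapped, with ONC3 just above the highest CTR channel and ONC4 at the top. Its log2 fold change was 0.08 (95% interval -0.24 to 0.40, limma adjusted p = 0.822) and -0.01 without ONC4.

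**Figure D3:**
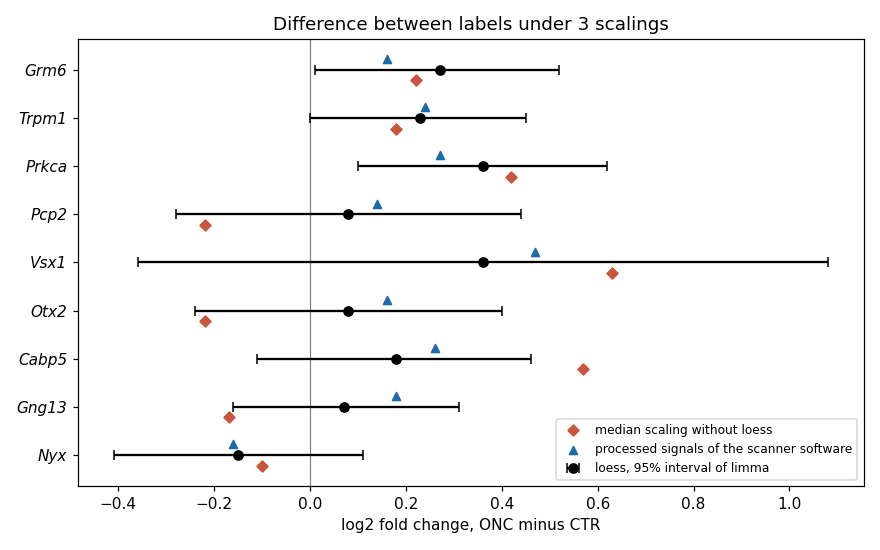
Log2 fold change of each bipolar cell gene, ONC minus CTR, with loess (black, bars are the 95% interval of limma), with median scaling alone (red) and with the scanner software's own processed signals (blue). Without loess, Pcp2, Otx2 and Gng13 move below 0, to -0.22, -0.22 and -0.17, and Cabp5 and Vsx1 move up, to 0.57 and 0.63.

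The sign of the difference depended on the scaling for the genes with bright spots. All genes were ranked by their mean level and divided into 5 bins of 3261 or 3262 genes. Without loess, the median log2 fold change was 0.52 in bin 1, the dimmest, and -0.13 in bin 5, while with loess it was -0.01 and 0.00. Cabp5 belonged to bin 1, and Pcp2, Otx2 and Gng13 belonged to bin 5. Grm6 and Trpm1, in bin 4, and Prkca and Nyx, in bin 3, kept their direction. Grm6 went from 0.27 to 0.22, Trpm1 from 0.23 to 0.18, Prkca from 0.36 to 0.42 and Nyx from -0.15 to -0.10. With the scanner software's own processed signals, Grm6 was at 0.16, Trpm1 at 0.24 and Prkca at 0.27, with 0 of the 9 genes called by limma and 21 genes called in all.

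The 9 genes differed in how much they varied between retinas. The SD within groups, pooled over CTR and ONC, was 0.13 for Trpm1 (28.4th percentile of all genes), 0.14 for Gng13, 0.16 for Grm6, Prkca and Nyx, 0.19 for Cabp5, 0.22 for Otx2, 0.25 for Pcp2 and 0.54 for Vsx1 (96.9th percentile), beside a median of 0.18 over all genes. Relative expression variability (REV) follows the formula of the methods, on signals after loess. REV is the pooled coefficient of variation times a chi-squared correction that depends on the number of spots. It was 5.98% in CTR and 38.2% in ONC for Cabp5 and 27.6% and 110% for Vsx1, where 1 probe was high in ONC4. It was higher in ONC for 5 of the 9, the others being Trpm1 (11.3% and 23.9%), Otx2 (26.4% and 38.5%) and Prkca (12.1% and 17.5%). In 4 it was lower, from 19% in CTR to 6.4% in ONC for Gng13, 43.5% to 22.9% for Pcp2, 28.1% to 14.4% for Grm6 and 27.6% to 18.4% for Nyx. These differences in spread were not tested. The median REV over all genes was 25.1% in CTR and 21.7% in ONC. The fold-change threshold that the methods derive from REV was 1.30 for Prkca, whose linear fold was 1.29, and 1.45 for Grm6, at 1.20. With this threshold 503 genes (3.08%) and 0 of the 9 met the criterion of the methods, while the methods' t-test alone, before adjustment, was passed by 2682 genes (16.4%) and by 2 of the 9, Grm6 and Prkca. These values rest on signals after loess, whereas the methods normalize to the median by iteration within and between arrays.

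Across channels, the median of the 9 genes, each set against its own mean, was -0.13, -0.14, 0.06 and -0.06 in CTR and 0.10, -0.11, 0.19 and 0.10 in ONC. ONC2 lay with the CTR channels, and CTR3 nearest to the ONC channels. In profiles scaled to mean 0 and SD 1, the nearest pair among the 9 was Trpm1 and Prkca, with a root mean square difference of 0.40 over 8 channels, and the farthest was Prkca and Nyx at 1.82. Among 10594 other genes, those nearest to the median profile were Jdp2 (0.26), Dcx (0.27), Rnf6 (0.27), Gsk3b (0.28) and Stk24 (0.33). The single nearest gene was Rab3gap2 for Grm6 (0.15), RGD1311745 for Trpm1 (0.16), Arhgap35 for Prkca (0.14), Clec16a for Pcp2 (0.20), Nedd1 for Vsx1 (0.16), Rps28 for Otx2 (0.31), Esrrb for Cabp5 (0.30), Prim2 for Gng13 (0.24) and Mea1 for Nyx (0.29). With 8 channels and so many candidates, near profiles are a description of these arrays.

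Other genes of the mGluR6 cascade were set beside the 9. Of 9 listed, 8 were found and 7 passed the spot filter, 4 higher in ONC and 3 lower, for a median log2 fold change of 0.12, which turned to -0.08 with the scanner software's processed signals and was 0.05 without CTR2. The highest were Gpr179, an orphan receptor that anchors RGS proteins at the dendritic tips, at 0.39, and Rgs7, one of these RGS proteins, at 0.29. The lowest were Gnb5, the beta subunit that pairs with RGS proteins, and Rgs9bp, their membrane anchor, at -0.38. Gnb5 read 2.49, 2.42, 2.54 and 2.74 in CTR and 2.06, 1.61, 2.07 and 2.13 in ONC. Its ONC channels were all below its CTR channels, and it was the gene of this list that limma called with the array as a block (log2 fold change -0.58, adjusted p = 0.0304, and 0.0782 without the block).

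Of 13 transcription factors of bipolar cells, 11 were found and 10 passed, 7 higher and 3 lower, with a median of 0.18. Isl1, the LIM homeodomain factor of ON bipolar cells that ganglion and amacrine cells also express, read 0.79, 0.91, 0.73 and 0.98 in CTR and 1.51, 1.49, 1.49 and 1.48 in ONC. The groups were far apart against their spread. CTR2 lay with the other CTR channels and ONC4 with the other ONC channels, while ganglion cell markers were high in CTR2 and low in ONC4. What part ganglion cells had in the Isl1 difference was not tested. Isl1 was the gene of this list that limma called, with a log2 fold change of 0.64 (adjusted p = 0.0418, and 0.0285 with the array as a block). Neurod4 followed at 0.32, and Sebox was at -0.06, neither of them called.

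Among 20 other genes of bipolar cells, 17 were found, 1 of them (Qpct) through its accession, and 16 passed, 9 higher and 7 lower. Their median of 0.05 rested on single channels, being -0.05 without CTR3, -0.03 without ONC2 and 0.11 without CTR4. Gabrr2 and Gabrr1, subunits of the GABA receptor on bipolar axon terminals, had the highest values, at 0.80 and 0.50. Gabrr2 read -1.26, -1.24, -1.28 and -1.36 in CTR and -0.56, -0.77, -0.29 and -0.33 in ONC. Every ONC channel was above every CTR channel, and limma called it (adjusted p = 0.0438, and 0.029 with the array as a block). Gabrr1, at 0.029, and the lowest genes, the kainate receptor partner Neto1 (-0.47) at 0.0311 and Trnp1 (-0.40) at 0.0371, passed an adjusted p of 0.05 by limma when the array was a block and not in the main fit. On the photoreceptor side of the synapse, 8 of 8 genes passed, 3 higher and 5 lower, with a median of -0.11. Dag1, the dystroglycan that ties the ribbon synapse to bipolar dendrites, was at -0.49 (limma adjusted p = 0.0438, and 0.029 with the block), and Cacna2d4, a subunit of the calcium channel of photoreceptor terminals, at -0.52 (0.0676, and 0.0293 with the block). Cacnb2 at 0.09 and Elfn1 at 0.08 were the highest there. Of 41 genes tested in the 4 lists together, limma called 3 without the block, Isl1, Gabrr2 and Dag1, beside 0.497% of all genes. With the array as a block, limma called 1 gene of the mGluR6 cascade list and 1 of the transcription factors. It called 4 of the other bipolar cell genes and 2 of the photoreceptor side in that fit, beside 7.69% of all genes.

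**Figure D4:**
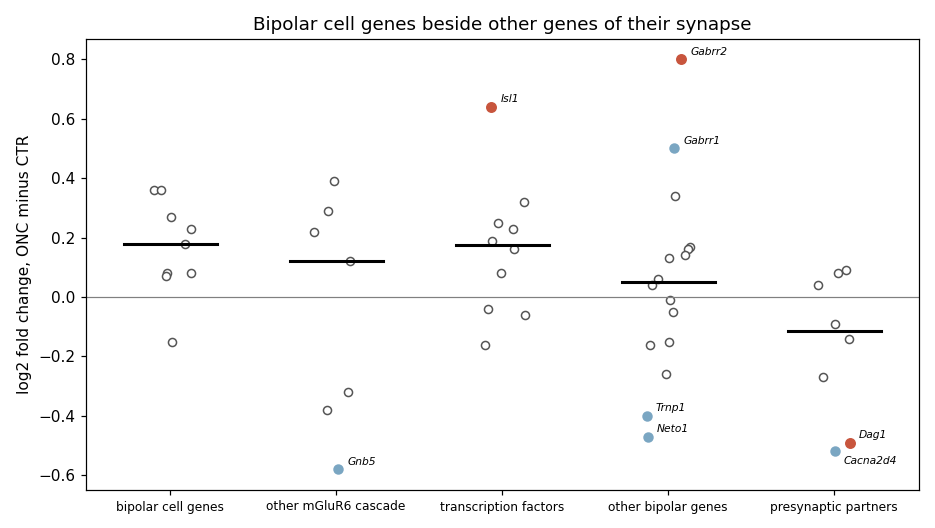
Log2 fold change, ONC minus CTR, of the 9 bipolar cell genes and of the genes of 4 other lists that passed the spot filter; bars are list medians, red points were called by limma with and without the array as a block, blue points with the block only, and open points in neither fit. The 9 genes lie between -0.15 and 0.36, with none called.

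Markers of other cells were read in the same channels to check the tissue. Of 11 ganglion cell markers 10 were found, and 8 passed, while Pou4f3 and Isl2 did not. All 8 were higher in ONC, with a median of 1.44, and limma called 0 with or without the block, none of them at an unadjusted p under 0.05. Their summed linear signal was 3.35, 23.8, 4.02 and 4.34 in CTR and 27.5, 27.4, 28.7 and 3.65 in ONC, and the gene with the brightest spots was Sncg. The median of the 9 bipolar cell genes, each against its own mean, was lower in CTR2 (-0.14) than in ONC4 (0.10), the other way round from these markers. On array 2, where both channels had high ganglion cell markers, the differences of Grm6, Trpm1 and Prkca were 0.07, 0.10 and 0.11, the lowest of the 4 arrays for each. Of the 9 genes, 5 had their lowest difference there, Cabp5 (-0.07) and Otx2 (-0.03) being the others, while Nyx (0.03) had its highest there and Pcp2 (0.02), Vsx1 (0.33) and Gng13 (0.16) neither. On array 4, where both were low, they were 0.14, 0.34 and 0.35. What part the makeup of the retinas had in these values was not tested.

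Rod markers (8 of 9 found, 8 passed) had 4 genes higher in ONC and 4 lower, with a median of -0.11 that became -0.45 without loess. Of the 8, 3 passed an unadjusted p of 0.05, beside 18.6% of all genes, all 3 lower in ONC, and limma called 0 without the block. Of 8 cone markers, 7 passed, 6 of them lower, with a median of -0.36 against 0.18 for the bipolar cell genes. Limma called 3 of them with the array as a block (Opn1mw -0.37, Pde6h -0.39 and Cngb3 -0.37), beside 7.69% of all genes, and 0 without it. In CTR the cone sums reached 61.7, 61.4, 61.9 and 65.9, and in ONC 45.8, 49.9, 51.7 and 53.3, with Pde6h the brightest. The rod, cone and photoreceptor-side lists had medians below 0 where the bipolar cell genes had one above 0, and whether the lists differ was not tested.

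Markers of the inner retina and its glia passed as well, as did genes typical of tissues around the retina. All 8 amacrine markers passed (median -0.06, Slc32a1 brightest), and Slc6a9 was called with the block at -0.41. By limma without the block, 3 of the 8 had an unadjusted p under 0.05, 1 of them higher in ONC, beside 18.6% of all genes. All 4 horizontal cell markers passed (median -0.06, Calb1 brightest, 0 called by limma and 0 at an unadjusted p under 0.05). Of 6 Müller cell markers, 5 passed (median -0.10, Apoe brightest, 1 at an unadjusted p under 0.05 by limma), and Slc1a3 was called with the block at -0.56. Limma called 0 in either fit of 6 microglial (6 passed, median -0.25, Aif1 brightest), 8 pigment epithelium (6 found, 4 passed, median 0.15, Ttr brightest), 7 lens (7 passed, median -0.35, Crygs brightest) and 6 blood vessel and blood markers (5 found and passed, median 0.08, Cldn5 brightest), with 2, 1, 1 and 0 at an unadjusted p under 0.05. With 1 channel left out, the medians ranged from -0.17 to -0.05 for rods, -0.18 to -0.05 for the photoreceptor side, -0.10 to 0.03 for amacrine, -0.12 to 0.01 for horizontal and -0.24 to -0.02 for Müller cells, -0.42 to -0.13 for microglia, -0.02 to 0.19 for blood vessels and 0.04 (without ONC1) to 0.42 (without ONC2) for pigment epithelium. Without loess the amacrine median was 0.01, the microglial 0.03 and the blood vessel 0.46. The lens median was 0.01 without CTR2, where the lens sum was 161, against 42.8 to 86.6 elsewhere, and the pigment epithelium sum 24.6 in ONC2, against 35.5 to 70.7 elsewhere. ONC2 was also the lowest ONC channel for Prkca, Trpm1, Cabp5 and Vsx1. For Grm6, Pcp2 and Nyx the lowest was ONC4, and for Otx2 and Gng13 it was ONC1. Whether the pigment epithelium sum and these levels are related was not tested.

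**Figure D5:**
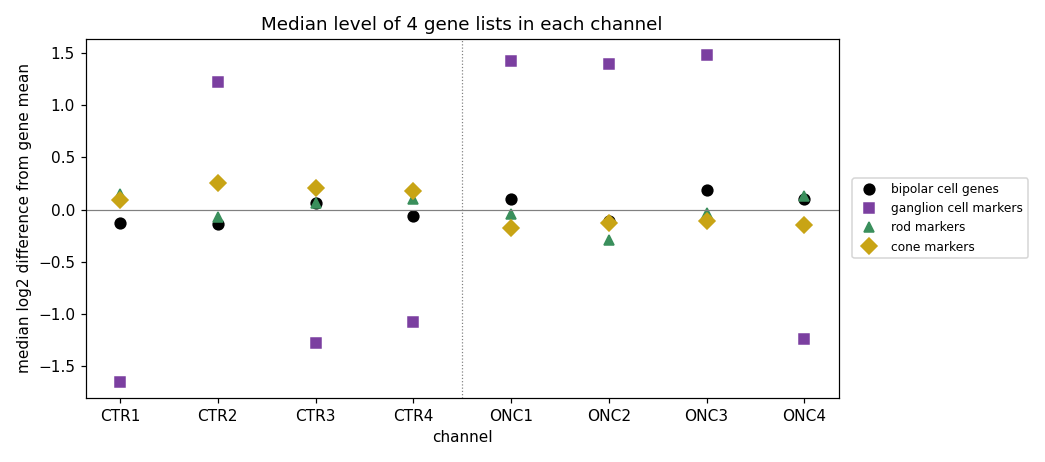
Median log2 difference of 4 gene lists from each gene's own mean, in the 8 channels. Ganglion cell markers are high in CTR2, ONC1, ONC2 and ONC3, cone markers lie above 0 in CTR and below 0 in ONC, and the bipolar cell genes stay between -0.14 and 0.19.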

How the data were processed

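RNA of 8 rat retinas was hybridized onto 4 two-color Agilent arrays, and the authors deposited, per spot and channel, intensity values written by the scanner software (Feature Extraction 12.0.3.1): mean foreground, median local background and a processed signal. Control spots, spots with outlier flags (3200) and spots whose foreground fell short of 2 times the background in 1 or more channels were left out, which kept 27371 spots, 18599 probes and 16307 genes. Background was subtracted, arrays were normalized by loess, channels were centered on their medians, and spots and then probes were averaged on the log2 scale. The arrays' median red-to-green log2 ratios before this step were 0.5, 0.32, 0.42 and 1.22.

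The groups were tested by limma 3.58.1 (R 4.3.3), unpaired and two-sided, with Benjamini-Hochberg adjustment over all genes and calls below an adjusted p of 0.05, a fit that was also tested on simulated data. Exact permutation tests (70 assignments that ignore the arrays, or 16 swaps within them) and summaries used scipy 1.17.1, pandas 2.3.3 and numpy 2.4.6 under Python 3.11.15 (plots: matplotlib 3.10.9). Alternatives covered scaling, background correction (normexp, offset 50), filters, probe choice, the array as a block, the methods' t-test and each channel left out. Channels of the same number share an array per the labels, and their deviations from the group means correlated across genes by 0.15, 0.55, 0.4 and 0.49. Both channels of an array share its spots and its loess fit. These correlations therefore cannot tell which retinas an array held.

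Named genes are all 9 members, genes of other lists called in either fit, the 2 highest and 2 lowest of each bipolar or synaptic list, the brightest gene of each marker list, and the nearest profiles (root mean square difference), apart from 2 genes that are not reported. Symbols follow the array design, 1 through a RefSeq accession. Members and lists were chosen with earlier results of these data known. Exon and UTR annotation of rn4 was not used here.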

Additional observations from a re-analysis of the deposited data

Results flagged for a closer look

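In each group of 4 channels, a channel was marked where its gap to the nearest other channel over the group's range exceeded Dixon's 95% critical value, which chance gives in about 1 of 20 groups. Among 18 groups of the 9 bipolar cell genes, 2 were marked. Prkca in ONC2 was at -1.08, below the 3 other ONC channels (gap over range 0.94), and Vsx1 in ONC4 was at -0.78, above the others (0.88).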

How the results depend on the processing

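The 81 genes called by limma became 3194 with median scaling without loess, 412 with loess and Aquantile, 21 with processed signals, 27 with normexp, 0 with normexp and no filter on dim spots together (2047 at an unadjusted p under 0.05), 123 with spots well above background and 124 with the brightest probe. The methods' t-test gave 2682 before adjustment, 0 after it and 503 with the fold-change threshold. Leaving out 1 channel gave 0 to 38. With the array as a block, limma called 1254 genes, all 81 among them, and 0 of the 9 bipolar cell genes, and the block changed no other call among these 9. Of the 9, median scaling without loess called 2 (Prkca 0.42, Cabp5 0.57) and the methods' t-test before adjustment 2, and every other setting 0.

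Over 144 values of single genes under other settings, 137 kept their direction and side of the threshold. The 5 that changed sign were Pcp2 (-0.22), Otx2 (-0.22) and Gng13 (-0.17) without loess, Pcp2 without CTR4 (-0.08) and Otx2 without ONC4 (-0.01). For the change without loess, the cause was not tested beyond the trend with spot brightness, and for the others it was not tested. With 1 channel left out, Pcp2 ranged from -0.08 to 0.16 and Otx2 from -0.01 to 0.16. The median of the 9 stayed between 0.11 and 0.27 in all settings where it was computed. Of 224 medians of other lists, 12 moved by more than 1 SD between arrays. Signal over background limits the dim probes of Vsx1 and Cabp5 most.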
